A study of Mus musculus with 10 samples.

Results

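The hepcidin and iron handling genes described here are Hamp, Hamp2, Tfrc, Tfr2, Trf, Fth1, Ftl1, Slc40a1, Bmp6 and Hfe, taken by symbol from a table of gene counts in mouse liver. All 10 were found among the 55291 genes of that table, and all 10 were among the 17015 genes that passed a filter on low counts and were tested. The livers came from female mice 16 to 20 weeks old that carried Cas9 behind a Lox-Stop-Lox cassette. Every mouse had received an AAV8 vector by tail vein with a guide RNA under the U6 promoter and Cre under the TBG promoter, which is active in hepatocytes, so that the control livers carried Cre and active Cas9 as well. The guide either had no target in the genome (NTC) or was directed at Bap1 (sgBap1), which encodes a nuclear deubiquitinase. Other liver cells keep Bap1 in this model, and a guide edits only some of the hepatocytes. After 10 days the mice were injected into the abdomen with 10 µL per g body weight of carbon tetrachloride (CCl4, 1 part in 9 parts of olive oil), which injures hepatocytes around the central vein, or with olive oil alone (Veh), and the livers were taken 48 h later. The groups were NTC-Veh (n = 2 livers), sgBap1-Veh (n = 2), NTC-CCl4 (n = 3) and sgBap1-CCl4 (n = 3), and RNA was read from the right lobe of each liver.

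Hepcidin, the peptide encoded by Hamp, is made by hepatocytes and sets how much iron enters the blood: it binds ferroportin, the iron exporter encoded by Slc40a1, and causes its breakdown. Its transcription rises with iron, through BMP6 from endothelial cells and the sensors HFE and transferrin receptor 2 (Tfr2) on hepatocytes, and with inflammation, through IL-6 and STAT3. Iron travels in blood on transferrin (Trf), enters cells through transferrin receptor 1 (Tfrc) and is stored in ferritin, built of a heavy (Fth1) and a light (Ftl1) chain. Hamp2 is a mouse paralog of Hamp whose overexpression in mice did not cause the iron deficiency seen with Hamp.

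Hamp (ENSMUSG00000050440.8, chr7:30942368-30944032) and Hamp2 (ENSMUSG00000056978.8, chr7:30922372-30924681) lie on the minus strand of chromosome 7 in GRCm38.p6, with 17686 bases between them (identifiers, positions, exon lengths and transcripts are from GENCODE vM21, and the counts were made on vM25). Their longest annotated transcripts were identical at 94.6% of aligned bases, with 388 matching, 22 differing and 27 in gaps. The 250 bases before their starts, taken from the RefSeq promoter table (GRCm38.p6; chr7:30944030-30944279 for Hamp and chr7:30924182-30924431 for Hamp2), were identical at 91.9%. The RefSeq start of Hamp2 lies inside its GENCODE gene, so that its 250 bases are part of that gene as printed here. A stretch of 28 bases is shown because it holds the core of the element through which BMP signals act on Hamp, and because the genes differ there. Capitals mark the core, GGCGCC in Hamp, and its counterpart in Hamp2, which carries the substitution G4A, counted from 1 at the 5′ end of the core.
Hamp: cccgcctgtttGGCGCCactattttctt
Hamp2: cccgcctgtttGGCACCactatcttctt
The letters GGCGCC, read on both strands, were found in the 250 bases before the start in 3149 of 32851 promoters (9.59%). Of the 8 genes described here with a promoter in that table (Trf and Slc40a1 have none), Hamp and Tfrc held them. The letters TTCTTGGAA of the STAT3 site, also read on both strands, were found in 120 promoters (0.365%), and among these 8 genes in Hamp and Hamp2. In Hamp the core begins at -109 and the STAT3 letters at -97 relative to the start, without overlap. A match is a description of letters and no evidence of binding in these livers.

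A second set of sequences marks the genes whose mRNA is bound by the iron regulatory proteins IRP1 and IRP2, which block translation at a hairpin in a 5′ UTR and protect the mRNA at hairpins in a 3′ UTR. Annotated transcripts were searched for 17 bases made of a C, 5 bases, the loop CAGTGN and 5 bases that pair with the stem, and capitals mark that loop. Among the 10 genes, Fth1, Ftl1 and Slc40a1 held such a hairpin in the 5′ UTR and Tfrc held 4 in the 3′ UTR.
Fth1: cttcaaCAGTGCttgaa
Ftl1: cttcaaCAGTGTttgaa
Slc40a1: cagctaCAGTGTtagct
Tfrc 1: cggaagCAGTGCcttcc
Tfrc 2: cggagaCAGTGAtctcc
Tfrc 3: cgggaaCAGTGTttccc
Tfrc 4: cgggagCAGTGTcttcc
Of 21877 coding genes, 31 (0.142%) held the pattern in a 5′ UTR and 129 (0.590%) in a 3′ UTR. Only mRNA levels were measured here, so translation from Fth1, Ftl1 and Slc40a1 was not seen.

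The other 8 genes in GRCm38.p6 are Tfrc (ENSMUSG00000022797.16, chr16:32608920-32632794), Tfr2 (ENSMUSG00000029716.13, chr5:137569840-137587481), Trf (ENSMUSG00000032554.15, chr9:103204001-103230444) and Slc40a1 (ENSMUSG00000025993.10, chr1:45908068-45926523). The ferritin genes are Fth1 (ENSMUSG00000024661.7, chr19:9980598-9985098) and Ftl1 (ENSMUSG00000050708.16, chr7:45457944-45459884). Ftl1 thus shares chromosome 7 with Hamp and Hamp2, and Bmp6 (ENSMUSG00000039004.6, chr13:38345107-38500302) and Hfe (ENSMUSG00000006611.15, chr13:23702034-23710854) share chromosome 13.

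Total counts ran from 33047904 in sgBap1-Veh replicate 2 to 52199904 in sgBap1-CCl4 replicate 1. Levels are given as CPM (edgeR counts-per-million) of a library size scaled by the trimmed mean of M-values (TMM), and differences between groups as log2 fold changes with their standard error (SE) and adjusted p-value from edgeR, with 0.05 as the threshold for a call. Bap1 itself stood at 34.8 and 34.8 CPM in NTC-Veh, 17.5 and 19.5 CPM in sgBap1-Veh, 30.1, 31.5 and 29.5 in NTC-CCl4, and 17.0, 21.8 and 19.1 in sgBap1-CCl4. Each sgBap1 liver lay below each NTC liver. Bap1 fell in the sgBap1 livers by 0.91 on the log2 scale with vehicle (SE 0.12, adjusted p = 0.0208) and by 0.65 with CCl4 (SE 0.0958, adjusted p = 0.0295). With CCl4 against vehicle Bap1 was not called in NTC (-0.20, SE 0.11, adjusted p = 0.144) or sgBap1 livers (0.06, SE 0.11, adjusted p = 0.648), nor in the interaction (0.26, SE 0.15, adjusted p = 0.616). Both genotype calls missed the threshold when some single livers were left out, with adjusted p up to 0.120 and 0.147, while each log2 fold change stayed between -0.99 and -0.84 with vehicle and between -0.75 and -0.57 with CCl4. Adjusted p was also above the threshold with replicate numbers as a block (0.0744 and 0.0552) and with library size alone (0.051 and 0.0646), and for CCl4 with only the 2 groups (0.0766). DESeq2 called both (adjusted p = 2.99e-07 and 5.73e-06).

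The liver sgBap1-CCl4 replicate 2 stood apart from the others. Its 5 adipocyte markers summed to 383 CPM, against 22.0 to 30.5 CPM in the other 5 CCl4 livers and 5.76 to 7.86 CPM in the vehicle livers, with Fabp4 the most abundant. None of these markers was at 0 in it, while at least 1 of Adipoq, Plin1 and Lep was at 0 in each of the other 9 livers. Its stellate cell markers summed to 662 CPM, against 231 to 347 CPM in the other CCl4 livers, and on the second principal component of all genes it lay at -46.0. Several results below are also given without it. The hepatocyte markers, led by Alb, summed to between 67075 and 161564 CPM in the 10 livers.

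Levels per length, in CPM per kb of exon, put the 10 genes in order by their median over the 10 livers. The length is that of all annotated exons of a gene merged, such as 3469 bases for Fth1 and 9000 for Slc40a1. It can exceed the length of the mRNA present in liver, so the order and the gaps below hold for this length only. Trf was highest, at 5598 to 8765 CPM per kb with a median of 7277, and its range overlapped with no other. Ftl1 followed with a median of 2872 CPM per kb (1981 to 3368) and Hamp with 2574 (1005 to 3064), and these ranges overlap. Fth1 had a median of 419 CPM per kb (349 to 559), Tfr2 of 65.9 (46.8 to 126), Slc40a1 of 23.5 (15.6 to 26.0) and Hfe of 11.8 (10.1 to 14.6), each apart from its neighbours in this order though within the wide range of Hamp2. Tfrc had a median of 4.40 CPM per kb (2.01 to 5.70), Hamp2 of 4.39 (2.71 to 1191) and Bmp6 of 1.59 (1.19 to 2.72), and the ranges of these last genes overlap. The place of Hamp2 depended on the treatment: its group means were 314 ± 124 CPM per kb (SD, n = 2) in NTC-Veh and 949 ± 342 (n = 2) in sgBap1-Veh and then 3.31 ± 0.751 (n = 3) in NTC-CCl4 and 3.58 ± 0.917 (n = 3) in sgBap1-CCl4.

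**Figure D1:**
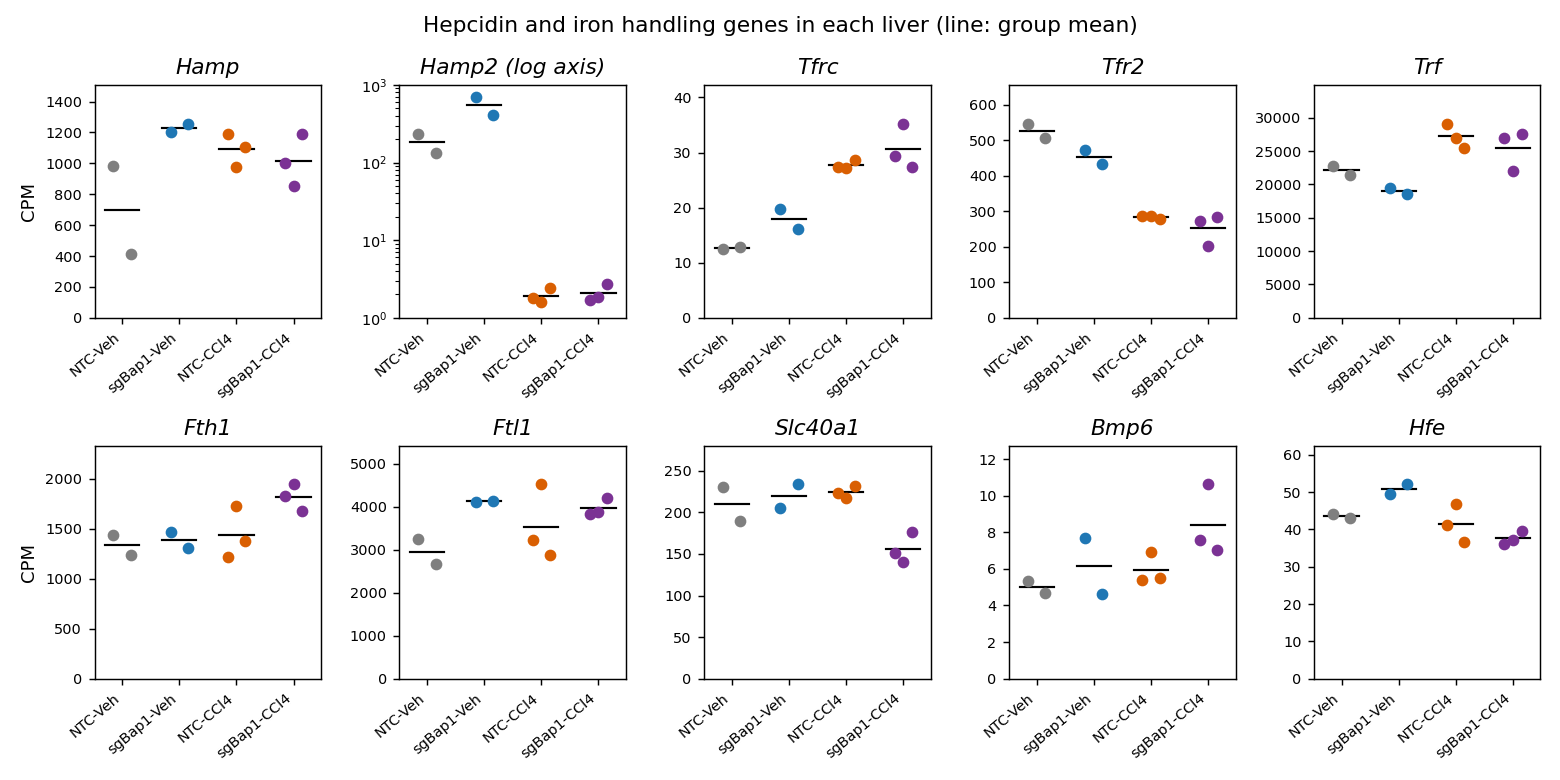
Level of each of the 10 genes in CPM in each of the 10 livers, by group, with 1 point a liver, a line at the group mean, axes from 0 and a log axis for Hamp2 alone. Hamp2 drops from 132 to 694 CPM in the vehicle livers to below 3 CPM in the CCl4 livers, while Hamp stays between 412 and 1256 CPM.

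With CCl4 in the control livers the main edgeR fit called 3 of the 10 genes, and Hamp2 had by far the largest fold change. Hamp2 was 95.8-fold lower, Tfr2, a sensor of iron-laden transferrin, was 1.86-fold lower, and Tfrc, the receptor that brings transferrin into cells, was 2.19-fold higher in NTC-CCl4 (n = 3) than in NTC-Veh (n = 2). EdgeR did not call the other 7 genes. These are levels in bulk RNA, in which fewer cells of a type and less RNA per cell cannot be told apart. The 3 of 10 called compare with 53.9% of all tested genes, and by direction 1 was higher (27.4% of all genes) and 2 were lower (26.6%). DESeq2 called 5 of the 10, against 47.0% of the genes it tested, the additional genes being Hamp (adjusted p = 0.0453) and Trf (adjusted p = 0.0303). The median log2 fold change of the 10 genes was 0.18, and that of all tested genes 0.03.

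In the sgBap1 livers CCl4 changed Hamp2, Tfr2 and Tfrc, and Slc40a1 and Hfe as well. Hamp2 was 266-fold lower, Tfr2 1.79-fold lower, Slc40a1 1.41-fold lower and Hfe 1.35-fold lower, and Tfrc was 1.70-fold higher in sgBap1-CCl4 (n = 3) than in sgBap1-Veh (n = 2). That Slc40a1 and Hfe were called in these livers alone is no test of a difference between genotypes, and neither passed the test of that difference given below. The 5 of 10 called compare with 57.0% of all tested genes, the 1 higher with 29.0% and the 4 lower with 28.0%. DESeq2 called 7, against 45.7% of the genes it tested, adding Trf (adjusted p = 0.00159) and Fth1 (adjusted p = 0.0371). The median log2 fold change of the 10 genes was -0.17, and that of all tested genes 0.04. Scaling by library size alone moved the median of all genes to 0.50 in the NTC and 0.52 in the sgBap1 livers, and left it at 0.03 and 0.02 between genotypes with vehicle and with CCl4. Under that scaling all 10 genes were called in the NTC livers, where 10561 of all genes were called. In the sgBap1 livers 6 of the 10 were called, and 11002 of all genes. Relative to the median of all genes, Hamp2 was then at -6.59 and Tfr2 at -0.92 on the log2 scale in the NTC livers.

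Between genotypes edgeR and DESeq2 differed on these genes. With vehicle, edgeR called 0 of 10 (0.406% of all genes were called), 3 had an unadjusted p under 0.05 (Hamp, Hamp2 and Tfrc, all at higher levels in sgBap1-Veh; 12.3% of all genes), and DESeq2 called 2 (Hamp2 and Tfrc; 3.64% of the genes it tested). With CCl4, edgeR called 0 of 10 (0.329% of all genes), 3 had an unadjusted p under 0.05 (Slc40a1, Bmp6 and Fth1; 14.0% of all genes), and DESeq2 called 1 (Slc40a1; 3.08% of the genes it tested), as did edgeR with library size alone (adjusted p = 0.0479). The test of whether CCl4 acted differently in the sgBap1 and NTC livers, the interaction, gave 0 of 10 in edgeR, as for genes at large (0%, the lowest adjusted p of all genes being 0.0694), with 3 under an unadjusted p of 0.05 (Hamp2, Slc40a1 and Hfe; 10.4% of all genes). DESeq2 called Hamp2 in that test, which makes 1 of 10 against 2.70% of the genes it tested. These genes with few calls were named after their values were seen. The 69 and 56 genes called between genotypes in edgeR varied with single livers, from 0 to 150 and from 1 to 71.

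The log2 fold changes of the 10 genes that are not in their paragraphs below were called by neither edgeR nor DESeq2. Between genotypes with vehicle they were -0.22 for Tfr2 (SE 0.15, adjusted p = 0.647), -0.22 for Trf (SE 0.21, adjusted p = 0.76), 0.05 for Fth1 (SE 0.18, adjusted p = 0.954), 0.31 for Bmp6 (SE 0.27, adjusted p = 0.733) and 0.22 for Hfe (SE 0.11, adjusted p = 0.473). With CCl4 they were -0.10 for Hamp (SE 0.27, adjusted p = 0.908) and 0.12 for Hamp2 (SE 0.34, adjusted p = 0.919). They were then also -0.16 for Tfr2 (SE 0.13, adjusted p = 0.596), -0.09 for Trf (SE 0.17, adjusted p = 0.851), 0.17 for Ftl1 (SE 0.18, adjusted p = 0.717) and -0.14 for Hfe (SE 0.0914, adjusted p = 0.51). The interactions were 0.13 for Trf (SE 0.27, adjusted p = 0.92), 0.28 for Fth1 (SE 0.24, adjusted p = 0.763), -0.32 for Ftl1 (SE 0.28, adjusted p = 0.774) and 0.19 for Bmp6 (SE 0.34, adjusted p = 0.904). Leaving out single livers turned the direction for Fth1 and Bmp6 with vehicle, for Hamp, Hamp2 and Trf with CCl4 and for Bmp6 in the interaction.

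**Figure D2:**
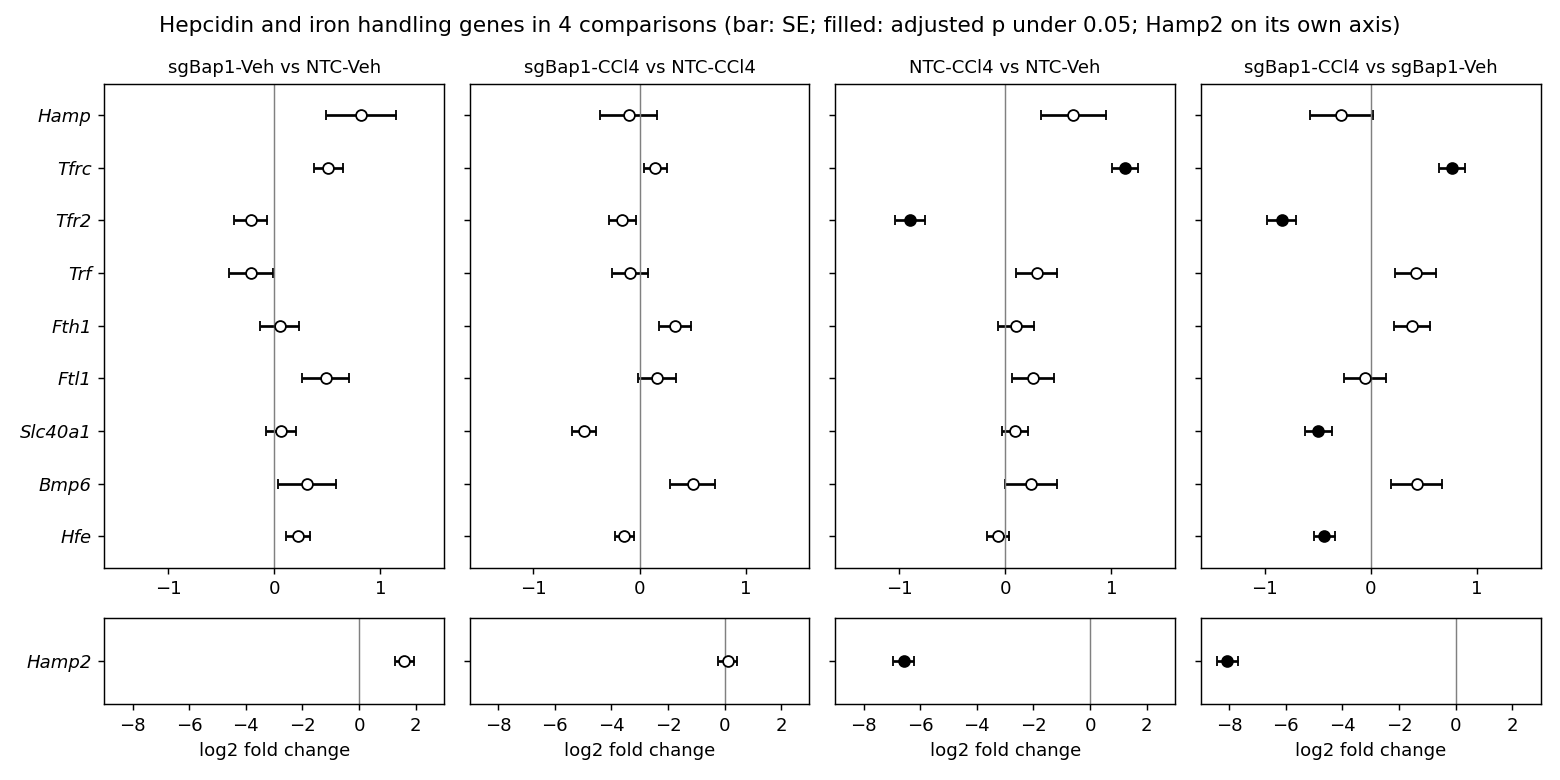
Log2 fold change of each of the 10 genes in 4 comparisons, Hamp2 on an axis of its own, with bars of 1 standard error and filled points for adjusted p under 0.05. Tfrc lies above 0 and Hamp2 and Tfr2 below 0 with filled points in both CCl4 comparisons, and Slc40a1 and Hfe are filled in the sgBap1 livers.

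Hamp, the gene of hepcidin, stood at 983 and 412 CPM in NTC-Veh, 1203 and 1256 CPM in sgBap1-Veh, 1188, 973 and 1108 in NTC-CCl4, and 1003, 852 and 1187 in sgBap1-CCl4. NTC-Veh replicate 2 was the lowest of all livers and the other 9 lay between 852 and 1256 CPM. Both sgBap1-Veh livers lay above both NTC-Veh livers, and all 3 sgBap1-CCl4 livers lay below the sgBap1-Veh livers, whereas the NTC groups overlapped. In edgeR no difference passed the test: the log2 fold change of sgBap1-Veh against NTC-Veh was 0.82 (SE 0.33, adjusted p = 0.348) and that of NTC-CCl4 against NTC-Veh was 0.64 (SE 0.30, adjusted p = 0.0998). DESeq2 called the latter (0.64, adjusted p = 0.0453), and so did edgeR with library size alone (1.14, adjusted p = 0.00472). In the sgBap1 livers CCl4 gave -0.28 (SE 0.30, adjusted p = 0.446), which was -0.17 without sgBap1-CCl4 replicate 2 (adjusted p = 0.707) and 0.19 with library size alone (adjusted p = 0.54). The interaction was -0.92 (SE 0.42, adjusted p = 0.501). The values with NTC-Veh turn on a single liver. Without NTC-Veh replicate 1, which leaves replicate 2 alone in its group, they were 1.57 for the genotype (adjusted p = 0.0485) and 1.40 for CCl4 (adjusted p = 0.00116), and without replicate 2 they were 0.32 and 0.15. The interaction was -1.68 (adjusted p = 0.105) without replicate 1 and -0.43 (adjusted p = 0.737) without replicate 2.

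Hamp2 stood at 235 and 132 CPM in NTC-Veh and at 694 and 413 CPM in sgBap1-Veh. After CCl4 it was at 1.79, 1.58 and 2.42 CPM in NTC and at 1.70, 1.87 and 2.70 CPM in sgBap1 livers, which are 83.5 to 127 counts a liver and so above the limit of 3 counts taken as the floor. Hamp had 42576 to 58888 counts in the same livers. How many of the Hamp2 counts came from sequence shared with Hamp was not tested. The vehicle and CCl4 livers were far apart, and both sgBap1-Veh livers lay above both NTC-Veh livers. CCl4 changed Hamp2 by a log2 fold change of -6.58 in NTC (SE 0.37, adjusted p = 2.58e-06) and of -8.06 in sgBap1 livers (SE 0.38, adjusted p = 1.19e-06). Leaving out single livers kept the first between -6.94 and -6.11 and the second between -8.38 and -7.63. Between the genotypes with vehicle the log2 fold change was 1.59 (SE 0.34, adjusted p = 0.0878), which DESeq2 called (adjusted p = 0.000102). The interaction was -1.48 (SE 0.47, adjusted p = 0.307; DESeq2 adjusted p = 0.026), and the CCl4 livers of both genotypes overlapped. It is the genotype difference with CCl4, 0.12, less that with vehicle, 1.59, and so mostly repeats the vehicle difference.

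Of the counts of Hamp and Hamp2 together, Hamp2 took 21.8 ± 3.54% (SD, n = 2) in NTC-Veh, 30.7 ± 8.40% (n = 2) in sgBap1-Veh, 0.176 ± 0.0364% (n = 3) in NTC-CCl4 and 0.206 ± 0.0309% (n = 3) in sgBap1-CCl4. There were 1.73 to 4.19 counts of Hamp for each count of Hamp2 in the vehicle livers and 439 to 667 in the CCl4 livers. The summed level of both genes was 1218 and 544 CPM in NTC-Veh, 1897 and 1669 CPM in sgBap1-Veh, 1190, 975 and 1110 in NTC-CCl4, and 1004, 853 and 1190 in sgBap1-CCl4. Fitted as 1 gene, the pair fell with CCl4 in the sgBap1 livers by 0.81 on the log2 scale (adjusted p = 0.0314), and in the NTC livers its log2 fold change was 0.31 (adjusted p = 0.391). The transcripts share sequence: of all stretches of 50 bases, the read length, 16.6% in Hamp were also in Hamp2, and 11.2% in Hamp2 were also in Hamp. How the counting divided reads from these stretches was not tested.

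**Figure D3:**
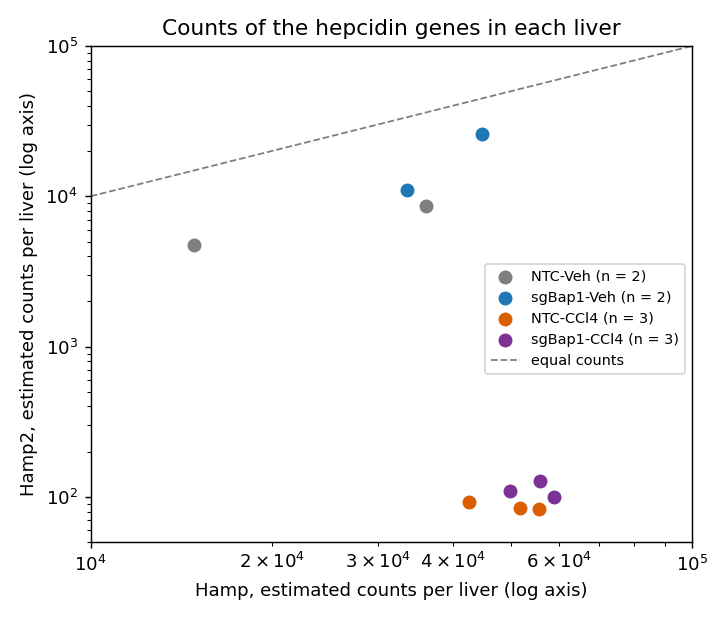
Estimated counts of Hamp2 against those of Hamp in each of the 10 livers, both on log axes, 1 point a liver coloured by group, with a dashed line at equal counts. The 4 vehicle livers lie at 4763 to 25801 counts of Hamp2 and the 6 CCl4 livers at 83.5 to 127, while Hamp stays between 14865 and 58888.

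The sensors upstream of hepcidin were lower or not called after CCl4. Tfr2 stood at 547 and 507 CPM in NTC-Veh, 472 and 433 CPM in sgBap1-Veh, 286, 285 and 278 in NTC-CCl4, and 273, 203 and 283 in sgBap1-CCl4, with every CCl4 liver below every vehicle liver. Its log2 fold change with CCl4 was -0.90 in NTC (SE 0.14, adjusted p = 0.000357) and -0.84 in sgBap1 livers (SE 0.14, adjusted p = 0.00052), where it was -0.70 without sgBap1-CCl4 replicate 2 (adjusted p = 0.000209). The interaction was 0.06 (SE 0.20, adjusted p = 0.956). Hfe, which encodes a partner of the transferrin receptors, had group means of 43.6 ± 0.738 CPM (SD, n = 2) in NTC-Veh, 50.8 ± 1.74 (n = 2) in sgBap1-Veh, 41.5 ± 5.10 (n = 3) in NTC-CCl4 and 37.6 ± 1.78 (n = 3) in sgBap1-CCl4. It was lower in each sgBap1-CCl4 liver than in each sgBap1-Veh liver, at -0.43 on the log2 scale (SE 0.10, adjusted p = 0.00426), while the NTC groups overlapped (-0.07, SE 0.10, adjusted p = 0.595). That direction is relative to other genes: scaled by library size alone Hfe in the sgBap1 livers had a log2 fold change of 0.05 (adjusted p = 0.726), which is -0.47 relative to the median of all genes. In the NTC livers it was then 0.40 and called (adjusted p = 0.00714). The interaction for Hfe was -0.37 (SE 0.14, adjusted p = 0.41). Bmp6, the ligand, was low, at 4.64 to 7.70 CPM in the vehicle and 5.37 to 10.6 CPM in the CCl4 livers. All 3 sgBap1-CCl4 livers were above all 3 NTC-CCl4 livers for Bmp6, by 0.50 on the log2 scale (SE 0.21, adjusted p = 0.328), which was 0.29 without sgBap1-CCl4 replicate 2 (adjusted p = 0.663). With CCl4 against vehicle Bmp6 had log2 fold changes of 0.25 in NTC (adjusted p = 0.425) and 0.43 in sgBap1 livers (adjusted p = 0.151), the second of which was 0.86 without sgBap1-Veh replicate 1 (adjusted p = 0.033), 0.13 without sgBap1-Veh replicate 2 (adjusted p = 0.711) and 0.23 without sgBap1-CCl4 replicate 2 (adjusted p = 0.423). With library size alone both were called, at 0.72 (adjusted p = 0.0429) and 0.92 (adjusted p = 0.0129).

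Of the uptake genes, Tfrc stood at 12.4 and 12.9 CPM in NTC-Veh, 19.8 and 16.2 CPM in sgBap1-Veh, 27.3, 27.1 and 28.6 in NTC-CCl4, and 29.4, 35.2 and 27.3 in sgBap1-CCl4. Every CCl4 liver was above every vehicle liver, and both sgBap1-Veh livers were above both NTC-Veh livers. The log2 fold change of Tfrc with CCl4 was 1.13 in NTC (SE 0.13, adjusted p = 4.23e-05) and 0.77 in sgBap1 livers (SE 0.12, adjusted p = 0.000453), where it was 0.65 without sgBap1-CCl4 replicate 2 (adjusted p = 0.000787). The interaction was -0.36 (SE 0.17, adjusted p = 0.514). Between genotypes the log2 fold change of Tfrc with vehicle was 0.51 (SE 0.14, adjusted p = 0.139; DESeq2 adjusted p = 0.0414), and with CCl4 it was 0.15 (SE 0.11, adjusted p = 0.571). Trf, the gene of the carrier transferrin, stood at 22825 and 21469 CPM in NTC-Veh, 19460 and 18585 CPM in sgBap1-Veh, 29099, 27023 and 25496 in NTC-CCl4, and 27034, 21972 and 27511 in sgBap1-CCl4. Within each genotype the CCl4 livers were above the vehicle livers, but edgeR called neither log2 fold change, at 0.30 in NTC (SE 0.19, adjusted p = 0.217) and 0.42 in sgBap1 livers (SE 0.19, adjusted p = 0.0842). DESeq2 called both (adjusted p = 0.0303 and 0.00159), and so did edgeR with library size alone (0.77, adjusted p = 0.000424, and 0.90, adjusted p = 0.000144). EdgeR also called the second with no filter (0.45, adjusted p = 0.0238), with the quasi-likelihood of edgeR 3 (0.42, adjusted p = 0.0397) and without sgBap1-CCl4 replicate 2 (0.52, adjusted p = 0.0129). Trf made up 1.81 ± 0.0232% of all counts (SD, n = 2) in NTC-Veh, 1.56 ± 0.0881% (n = 2) in sgBap1-Veh, 3.09 ± 0.180% (n = 3) in NTC-CCl4 and 2.91 ± 0.175% (n = 3) in sgBap1-CCl4. These shares are of unscaled counts, and the TMM factors of the CCl4 livers (1.08 to 1.24) were higher than those of the vehicle livers (0.786 to 0.851). Of the stretches of 50 bases in Trf, 58.5% also belonged to the overlapping gene Gm20425 on the same strand.

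The ferritin genes were called in no comparison by the main edgeR fit, but Fth1 was called by others. Fth1, the heavy chain, had group means of 1336 ± 142 CPM (SD, n = 2) in NTC-Veh, 1387 ± 117 (n = 2) in sgBap1-Veh, 1437 ± 264 (n = 3) in NTC-CCl4 and 1813 ± 133 (n = 3) in sgBap1-CCl4. All 3 sgBap1-CCl4 livers lay above both sgBap1-Veh livers for Fth1, by 0.39 on the log2 scale (SE 0.17, adjusted p = 0.0752). DESeq2 called that difference (adjusted p = 0.0371), as did edgeR with no filter (0.42, adjusted p = 0.0486), with library size alone (0.87, adjusted p = 0.00109) and without NTC-CCl4 replicate 2, which is in neither group (adjusted p = 0.043). It was 0.34 (adjusted p = 0.123) without sgBap1-CCl4 replicate 2 and 0.30 (adjusted p = 0.305) without sgBap1-Veh replicate 2. In the NTC livers CCl4 gave 0.11 for Fth1 (SE 0.17, adjusted p = 0.624; -0.05 without NTC-CCl4 replicate 2) and 0.26 for Ftl1 (SE 0.20, adjusted p = 0.297; 0.047 to 0.41 without single livers). Library size alone made calls of both (0.58, adjusted p = 0.0115, and 0.74, adjusted p = 0.00367). Between genotypes with CCl4 the log2 fold change of Fth1 was 0.34 (SE 0.15, adjusted p = 0.356), and the groups overlapped. Ftl1, the light chain, had group means of 2947 ± 413 CPM in NTC-Veh (n = 2), 4124 ± 14.1 in sgBap1-Veh (n = 2), 3533 ± 867 in NTC-CCl4 (n = 3) and 3967 ± 207 in sgBap1-CCl4 (n = 3). Both sgBap1-Veh livers were above both NTC-Veh livers for Ftl1, by 0.48 on the log2 scale (SE 0.22, adjusted p = 0.407). CCl4 in the sgBap1 livers gave -0.06 (SE 0.20, adjusted p = 0.826), or 0.42 with library size alone (adjusted p = 0.0508). The annotated copy Ftl1-ps1, with which 47.3% of the stretches of 50 bases in Ftl1 are shared, took 3.50 ± 0.487% (SD, n = 10) of the counts of both.

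Slc40a1, the exporter ferroportin, was lower in each sgBap1-CCl4 liver than in every other liver in TMM-scaled CPM. That order depends on the scaling, as the values with library size alone at the end of this paragraph show. How many of all genes had such an order was not counted. It stood at 230 and 190 CPM in NTC-Veh, 206 and 234 CPM in sgBap1-Veh, 223, 217 and 232 in NTC-CCl4, and 151, 141 and 177 in sgBap1-CCl4, the lowest 3 of the 10 livers. In the sgBap1 livers its log2 fold change with CCl4 was -0.49 (SE 0.12, adjusted p = 0.00654), while in the NTC livers it was 0.09 (SE 0.13, adjusted p = 0.555). The difference between these, the interaction, was -0.59 (SE 0.18, unadjusted p = 0.00774) and did not pass over all genes (adjusted p = 0.246; DESeq2 adjusted p = 0.0638). Between genotypes with CCl4 the log2 fold change was -0.52 (SE 0.11, adjusted p = 0.0864), which DESeq2 called (adjusted p = 0.00192), and with vehicle it was 0.07 (SE 0.14, adjusted p = 0.919). Without sgBap1-CCl4 replicate 2, the lowest liver, the values were -0.42 for CCl4 (adjusted p = 0.0163) and -0.45 for the genotype (adjusted p = 0.198), and without sgBap1-Veh replicate 2 the CCl4 value was -0.40 and no longer called (adjusted p = 0.0666). Scaled by library size alone, Slc40a1 in the sgBap1 livers had a log2 fold change of -0.02 with CCl4 (adjusted p = 0.891), which is -0.54 relative to the median of all genes. With that scaling the difference between genotypes with CCl4 was -0.51 and was called (adjusted p = 0.0479), and Slc40a1 rose with CCl4 in the NTC livers (0.57, adjusted p = 0.000628).

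Several of these genes are known from particular liver cells: Hamp, Tfr2, Trf and Hfe from hepatocytes, Slc40a1 also from Kupffer cells, which recycle iron from red cells, and Bmp6 from endothelial cells. Of 7 hepatocyte markers edgeR called 6 lower with CCl4 in NTC (26.6% of all genes were lower) and 3 in sgBap1 livers (28.0%). DESeq2 called the same 6 in both, against 47.0% and 45.7% of the genes it tested called in either direction. Neither called any in the interaction. Their summed level was 161564 and 130295 CPM in NTC-Veh, 114107 and 122705 CPM in sgBap1-Veh, 77143, 83975 and 73386 in NTC-CCl4, and 85829, 67075 and 86263 in sgBap1-CCl4. The 7 Kupffer cell markers, led on average by Cd5l, summed to 303 and 188 CPM in NTC-Veh, 586 and 394 CPM in sgBap1-Veh, 663, 522 and 976 in NTC-CCl4, and 489, 719 and 586 in sgBap1-CCl4. Of these 7, 4 rose with CCl4 in NTC livers (57.1%, against 27.4% of all genes). In sgBap1 livers 1 rose (14.3%, against 29.0%) and 2 fell (28.6%, against 28.0%). Both sgBap1-Veh livers were above both NTC-Veh livers for the Kupffer cell sum, as they were for Hamp, Hamp2, Tfrc, Ftl1 and Hfe, and below them for Tfr2 and Trf. The share of all genes that separated in this way was not counted, so no result for the 10 genes is drawn from this order. Between genotypes with vehicle edgeR called 0 of the 7 Kupffer cell markers, with 5 at an unadjusted p under 0.05 (12.3% of all genes) and 5 called by DESeq2 (3.64%). In the interaction it called 0, with 6 under an unadjusted p of 0.05 (10.4%) and 3 called by DESeq2 (2.70%). It also called 0 markers of recruited monocytes and of cycling cells in the interaction. Under an unadjusted p of 0.05 were 4 of 7 and 4 of 6 of these, with 3 and 1 called by DESeq2. The sgBap1-Veh livers were also above the NTC-Veh livers for the sums of recruited monocytes (158 and 142 against 105 and 93.5 CPM) and cycling cells (53.1 and 46.7 against 34.7 and 33.0 CPM), each with 0 markers called by edgeR and 3 by DESeq2. They were below them for the hepatocyte sum, with 0 called by either.

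The marker counts in this paragraph compare with 27.4% of all genes higher and 26.6% lower with CCl4 in NTC, and 29.0% and 28.0% in sgBap1 livers. The 7 endothelial markers, led on average by Stab2, summed to 167 to 234 CPM in the vehicle and 187 to 221 CPM in the CCl4 livers. Of them 3 were higher after CCl4 in NTC, and 2 were higher and 2 lower in sgBap1 livers (28.6% each way, about the shares of all genes). All 7 markers of recruited monocytes and macrophages, led by Lyz2, rose with CCl4 in both genotypes, from 93.5 to 158 CPM in the vehicle livers to 697 to 1085 CPM. All 6 markers of cycling cells, led by Pcna with vehicle and by Mki67 with CCl4, also rose in both, from 33.0 to 53.1 CPM to 246 to 404 CPM. The 6 stellate cell markers, led by Reln with vehicle and by Col1a1 with CCl4, went from 83.5 to 115 CPM to 231 to 662 CPM, with 5 higher in NTC and 4 in sgBap1 livers. Of the 6 neutrophil markers, led by S100a9, 4 were tested and 3 rose in each genotype, from 3.21 to 6.11 CPM to 14.2 to 21.7 CPM, with Ly6g or Mpo at 0 in 5 livers. Of the 7 erythroid markers, led by Hbb-bs, 6 were tested: 3 rose and 1 fell in NTC, 1 fell in sgBap1 livers, and their sum was 389 to 571 CPM with vehicle and 543 to 1612 CPM with CCl4. Between genotypes with CCl4, 3 of these 6 had an unadjusted p under 0.05 (14.0% of all genes), with a median log2 fold change of -0.78. EdgeR and DESeq2 called 0 of them there, and of the recruited monocyte markers DESeq2 called Spp1. Of the 5 adipocyte markers 2 were tested, of which edgeR called Cidec higher in NTC and Cidec and Fabp4 in sgBap1 livers, where DESeq2 called Cidec and gave no p-value for Fabp4. In the sgBap1 livers Fabp4 rose by 4.02 on the log2 scale (SE 1.44, adjusted p = 0.0447), which was 1.22 (SE 0.18, adjusted p = 0.000257) without sgBap1-CCl4 replicate 2. Cidec rose by 4.24 (SE 1.09, adjusted p = 0.0121), which was 2.79 (SE 0.41, adjusted p = 0.000579) without it. The part of these cell types in the results for the 10 genes was not tested.

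**Figure D4:**
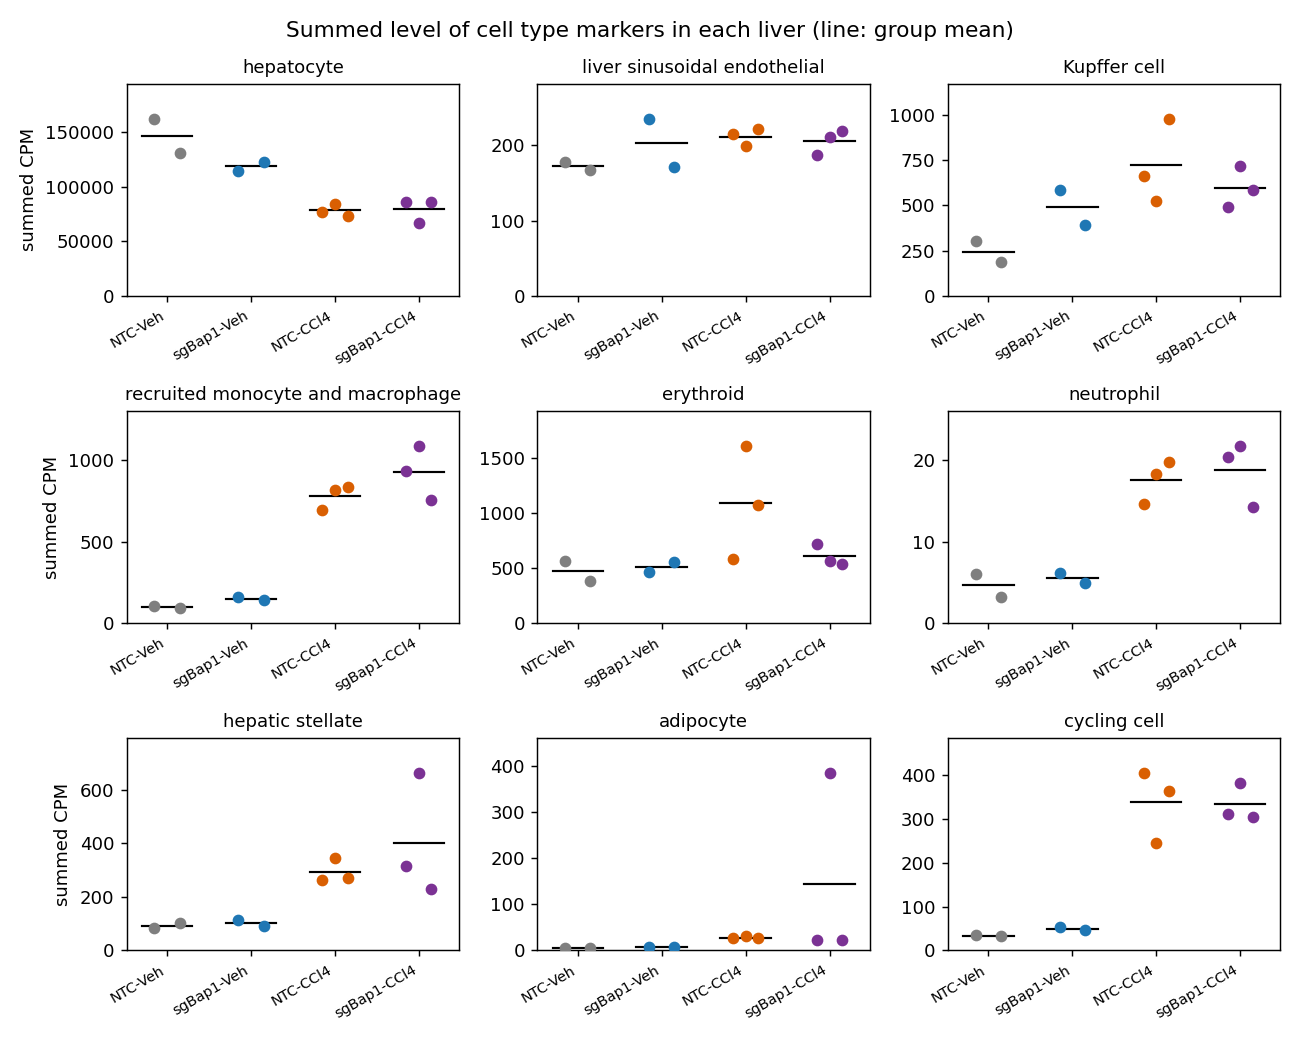
Summed level in CPM of the marker genes of 9 cell types in each of the 10 livers, by group, with 1 point a liver, a line at the group mean and axes from 0. The hepatocyte sum is lower and the marker sums of recruited monocytes, cycling, stellate cells, neutrophils and adipocytes are higher in every CCl4 liver than in every vehicle liver. In NTC-CCl4 replicate 1 and sgBap1-CCl4 replicate 1 the adipocyte sum holds Cidec and Fabp4 alone, with Adipoq, Plin1 and Lep at 0.

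Around these 10 genes, 7 lists with 71 other iron genes were examined, of which 70 were tested (Ftmt was not). With CCl4, 22 rose (31.4%) and 23 fell (32.9%) in NTC, against 27.4% and 26.6% of all tested genes. In sgBap1 livers 22 rose (31.4%) and 25 fell (35.7%), against 29.0% and 28.0%. The same shares of all genes apply to each list below, and no list was tested as a set. Between genotypes edgeR called 0 of the 70 with vehicle, with 7 under an unadjusted p of 0.05 (12.3% of all genes) and 2 called by DESeq2 (Fgl1 and Hmox1; 3.64% of the genes it tested). It called 0 with CCl4, with 6 under an unadjusted p of 0.05 (14.0% of all genes) and 2 called by DESeq2 (Il6ra and Slc25a37; 3.08%). The interaction likewise gave 0, with 8 under an unadjusted p of 0.05 (10.4% of all genes) and 1 called by DESeq2 (Slc25a37; 2.70%). These few were named after their values were seen.

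Upstream of hepcidin, of 7 genes of IL-6 and STAT3 signalling, 4 rose and 1 fell in NTC (median log2 fold change 0.74) and 5 rose in sgBap1 livers (0.64). Socs3, a feedback inhibitor induced by STAT3, rose by a log2 fold change of 1.71 in NTC (SE 0.27, adjusted p = 0.000606) and of 2.29 in sgBap1 livers (SE 0.28, adjusted p = 0.000123). Il6ra, the receptor of IL-6, fell by 1.13 on the log2 scale in NTC livers (SE 0.18, adjusted p = 0.000533) and was not called in sgBap1 livers (-0.27, SE 0.18, adjusted p = 0.227; 0.21 with library size alone; interaction 0.86, adjusted p = 0.255). There it was -0.57 to 0.10 without single livers and was called without sgBap1-Veh replicate 1. Il6st, its signalling partner, rose by 0.78 in NTC (SE 0.13, adjusted p = 0.000461) and 0.86 in sgBap1 livers (SE 0.13, adjusted p = 0.000244). Of 18 genes of BMP and SMAD control, 6 rose and 3 fell in NTC (median 0.18), and 6 rose and 4 fell in sgBap1 livers (0.15). Erfe, the erythroid regulator of hepcidin and one of the 6 in each, was named after its values were seen: it was at 0 in both sgBap1-Veh livers and at 0.255 to 0.664 CPM after CCl4, so that its fitted fold change rests on almost no counts. Id1, a SMAD target that accompanies Hamp in the response to BMP6, went from 7.03 ± 2.65 CPM (SD, n = 2) in NTC-Veh and 8.04 ± 0.797 (n = 2) in sgBap1-Veh to 52.1 ± 5.26 (n = 3) in NTC-CCl4 and 49.6 ± 7.11 (n = 3) in sgBap1-CCl4. Its log2 fold change was 2.89 in NTC (SE 0.23, adjusted p = 7.34e-06) and 2.63 in sgBap1 livers (SE 0.23, adjusted p = 1.13e-05). Hamp was called in NTC by DESeq2 but not by the main edgeR fit, and in sgBap1 livers by neither. The value of Hamp in NTC was 0.15 to 1.40 without single livers, and a link between Id1 and Hamp was not tested. Inhbb, which encodes the subunit of activin B, rose by 2.39 in NTC (SE 0.41, adjusted p = 0.0011) and 2.62 in sgBap1 livers (SE 0.41, adjusted p = 0.000628), with 1.92 to 3.10 and 2.17 to 3.37 without single livers.

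Of 10 genes of other iron uptake and reduction, 5 rose and 2 fell in NTC (median log2 fold change 0.66), and 5 rose in sgBap1 livers (0.68). Lcn2, which binds bacterial iron carriers, rose from 47.2 and 36.1 CPM to 475, 376 and 445 CPM in NTC (log2 fold change 3.37, SE 0.22, adjusted p = 2.45e-06) and from 31.2 and 46.7 CPM to 279, 352 and 295 CPM in sgBap1 livers (2.99, SE 0.22, adjusted p = 3.42e-06). The reductase gene Steap4 was higher in NTC (0.96, SE 0.25, adjusted p = 0.00883) and in sgBap1 livers (0.77, SE 0.25, adjusted p = 0.0232). Without single livers these were 0.57 to 1.50 (adjusted p up to 0.0526) and 0.66 to 0.88 (adjusted p up to 0.136). Its relative Steap2 was higher in sgBap1 livers (1.19, SE 0.36, adjusted p = 0.0211) and not called in NTC (0.46, SE 0.35, adjusted p = 0.291), with an interaction of 0.72 (adjusted p = 0.684). Without single livers the value in sgBap1 livers was 0.68 to 2.05 (adjusted p up to 0.0712). It was 1.18 without sgBap1-CCl4 replicate 2 (adjusted p = 0.0526), and with no filter 1.21 (adjusted p = 0.0555). Of 10 genes of heme and hemoglobin scavenging and breakdown, 6 rose and 2 fell in NTC (0.53), and 4 rose and 3 fell in sgBap1 livers (0.26). Hmox1, the heme oxygenase that frees iron from heme, rose by 2.75 in NTC (SE 0.25, adjusted p = 2.11e-05) and 1.83 in sgBap1 livers (SE 0.24, adjusted p = 0.000169), with an interaction of -0.92 that did not pass (adjusted p = 0.35). Flvcr1, a heme exporter, rose by 1.24 in NTC (SE 0.19, adjusted p = 0.000289) and 1.50 in sgBap1 livers (SE 0.19, adjusted p = 9.22e-05).

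Of 8 genes of heme synthesis, 7 fell and none rose with CCl4 in either genotype, with median log2 fold changes of -0.64 in NTC and -0.67 in sgBap1 livers. Alas1, the rate-limiting enzyme, had log2 fold changes of -1.43 in NTC (SE 0.25, adjusted p = 0.000819) and -1.19 in sgBap1 livers (SE 0.25, adjusted p = 0.00233), with -1.80 to -0.92 in NTC without single livers. Uros, a later enzyme, fell by 0.81 in NTC (SE 0.13, adjusted p = 0.000416) and 0.94 in sgBap1 livers (SE 0.13, adjusted p = 0.000144). Alad, the second enzyme of the pathway, fell by 1.04 in sgBap1 livers (SE 0.16, adjusted p = 0.000352) and was not called in NTC (-0.32, SE 0.16, adjusted p = 0.124; 0.15 with library size alone), with an interaction of -0.72 (adjusted p = 0.289). Without single livers the value of Alad in NTC was -0.55 to -0.04, and it was called without NTC-Veh replicate 1. Of 9 genes of mitochondrial iron and iron-sulfur clusters, 5 fell in NTC (-0.38) and 7 in sgBap1 livers (-0.58). Glrx5, a glutaredoxin of cluster assembly, had log2 fold changes of -0.73 in NTC (SE 0.15, adjusted p = 0.00183) and -1.14 in sgBap1 livers (SE 0.15, adjusted p = 9.85e-05). Nfs1, the cysteine desulfurase, fell by 0.66 in NTC (SE 0.0823, adjusted p = 8.22e-05) and 0.58 in sgBap1 livers (SE 0.0825, adjusted p = 0.000199). The scaffold gene Iscu fell by 0.63 in NTC (SE 0.11, adjusted p = 0.000885) and 0.80 in sgBap1 livers (SE 0.11, adjusted p = 0.000178). Scaled by library size alone, Glrx5 (-0.26, adjusted p = 0.136), Nfs1 (-0.19, adjusted p = 0.0645) and Iscu (-0.15, adjusted p = 0.229) were no longer called in NTC. Nor was Nfs1 in sgBap1 livers (-0.10, adjusted p = 0.301).

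The iron regulatory proteins that bind the hairpins in Fth1, Ftl1, Slc40a1 and Tfrc are encoded by Aco1 (IRP1) and Ireb2 (IRP2). Their list, iron sensing and ferritin turnover, had 9 genes, of which 8 were tested: 1 rose and 3 fell in NTC (median log2 fold change -0.18), and 2 rose and 4 fell in sgBap1 livers (-0.25). Aco1 had log2 fold changes of -0.83 in NTC (SE 0.0975, adjusted p = 5.67e-05) and -0.91 in sgBap1 livers (SE 0.0974, adjusted p = 2.91e-05). Ireb2 fell by 0.80 in NTC (SE 0.11, adjusted p = 0.000156) and 1.15 in sgBap1 livers (SE 0.11, adjusted p = 1.42e-05). Cp, the ferroxidase ceruloplasmin that works with ferroportin, rose by 0.85 in NTC livers (SE 0.21, adjusted p = 0.00633), with 0.81 (adjusted p = 0.0509) without NTC-Veh replicate 2. In sgBap1 livers it rose by 0.66 (SE 0.21, adjusted p = 0.0202), with 0.51 to 0.84 (adjusted p up to 0.151) without single livers. That call was also lost under the replicate block and with only the 2 groups. Of the members with these hairpins, the main edgeR fit called only Tfrc in both genotypes, and it rose. That fit called Slc40a1 lower in sgBap1 livers alone (-0.49, adjusted p = 0.00654; -0.02 with library size alone) and neither ferritin gene. With library size alone Fth1 also rose in both genotypes. In NTC, where that scaling called all 10 genes, Ftl1 and Slc40a1 rose as well. A link of these levels to Aco1 or Ireb2 was not tested.

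**Figure D5:**
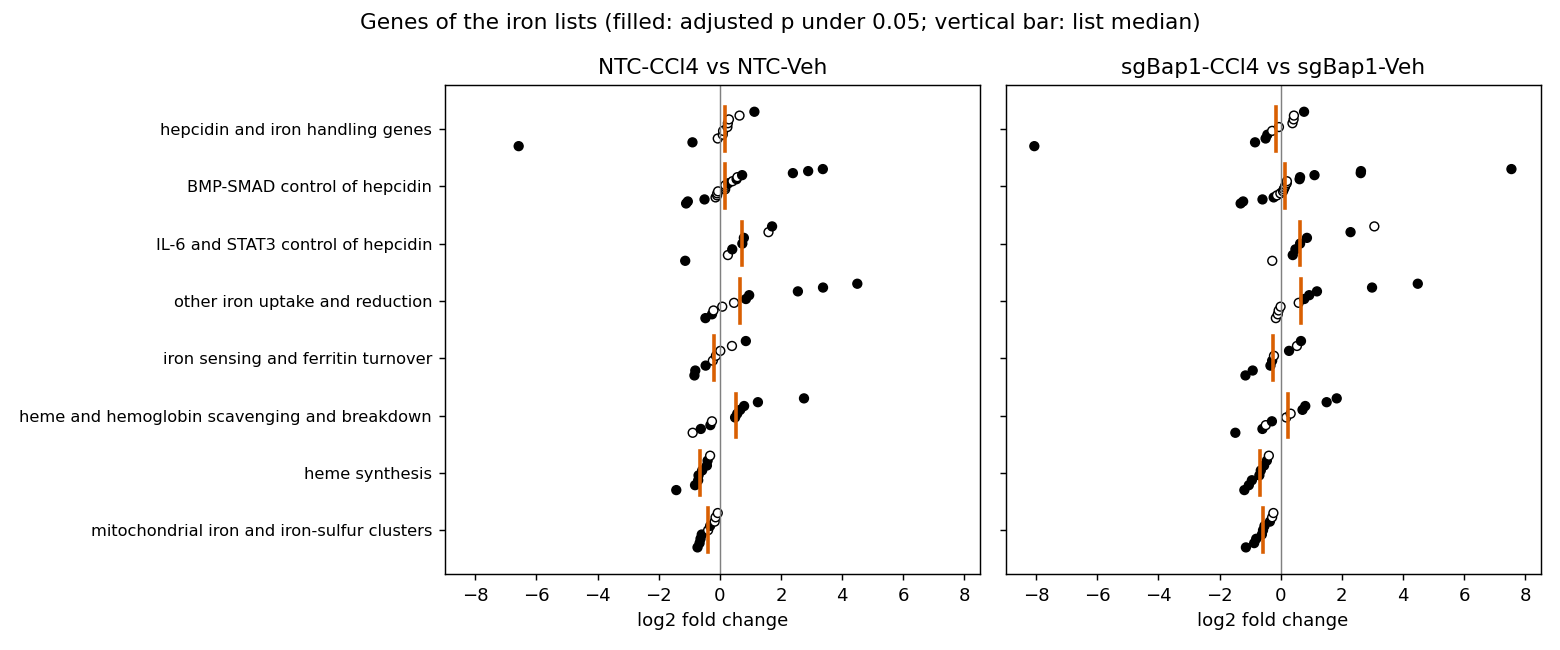
Log2 fold change of every tested gene of the 10 and of the 7 other iron lists with CCl4 in the NTC and sgBap1 livers, 1 point a gene, filled for adjusted p under 0.05 with a vertical bar at the median of each list. The medians of heme synthesis (-0.64 and -0.67) and mitochondrial iron (-0.38 and -0.58) lie below 0, and those of IL-6 and STAT3 (0.74 and 0.64) and other uptake (0.66 and 0.68) above it, and the rightmost point in the sgBap1 livers is Erfe, at 0 counts with vehicle.

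Genes with the most similar pattern are given for 3 of the 10, from a search among 12026 genes, by the root mean square difference between log2 CPM values centred on each gene's mean over the 10 livers. For Hamp2, whose own root mean square was 3.60, these were Cyp3a16 (0.77), Gm13775 (0.81) and Slc1a2 (0.86). Slc1a2, a glutamate transporter, went from 257 ± 36.4 CPM (SD, n = 2) in NTC-Veh and 226 ± 28.4 (n = 2) in sgBap1-Veh to 0.577 ± 0.136 (n = 3) in NTC-CCl4 and 0.938 ± 0.0719 (n = 3) in sgBap1-CCl4. Cyp3a16 and Gm13775 had group means of 0 to 0.0747 CPM after CCl4, so that the prior count of 2 bears on their distances. For Tfrc (0.50) they were Tor4a (0.08), Fes (0.08) and Tomm40l (0.08), and for Slc40a1 (0.25) Nfyb (0.12), Sytl4 (0.12) and Stoml1 (0.13).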

How the data were processed

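Poly(A) RNA from 10 livers was sequenced as stranded paired reads of 50 bases. The authors aligned reads with STAR 2.7.6a and quantified them with Salmon 1.4.0 on GENCODE vM25 (GRCm38.p6), and the deposited values are estimated counts per gene (9.22% are not whole). These were rounded and fitted in edgeR 4.0.16 (R 4.3.3) with TMM scaling, filterByExpr on the 4 groups, 1 coefficient per group and robust quasi-likelihood tests (two-sided, SE from the log2 fold change and F). P-values were adjusted by Benjamini-Hochberg over the 17015 genes tested, with a threshold of 0.05. Replicates of a group differed beyond sampling noise (mean chi-square per gene 14.8 to 87.0), and each was counted once. The CCl4 and genotype comparisons share groups. Replicate numbers were not treated as pairs.

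All 10 members and Bap1 are named in every comparison, and from each other iron list the 2 called genes with the largest absolute log2 fold change in a comparison, given an average of 100 counts or more over the livers; those named for CCl4 in 1 genotype are also given in the other. The members and lists were chosen with earlier results of these data known. The same minimum applied to the search for similar patterns. That search for Hamp is not reported here. Log2 CPM values took a prior count of 2. Alternatives were DESeq2 1.42.0 (size factors alone, or its Wald test), library size alone, no filter, a mean of 10 counts, the replicate block, only the 2 groups compared, Hamp and Hamp2 summed, and each liver left out, and, added after seeing the data, the quasi-likelihood test of edgeR 3. Gene models and transcripts are from GENCODE vM21 and promoters from RefSeq, both GRCm38.p6. Proteins were not analysed here.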

Additional observations from a re-analysis of the deposited data

How the results depend on the processing

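Leaving out a liver from a vehicle group leaves 1 liver, assumed to vary like the others. In the counts per comparison, DESeq2's test called 2 of the 10 genes for the genotype with vehicle and 1 with CCl4. It called 5 for CCl4 in NTC livers, 7 in sgBap1 livers and 1 in the interaction. Scaling by library size alone called 1 for the genotype with CCl4 (62 of all genes). For CCl4 that scaling called 10 in NTC (10561 of all genes) and 6 in sgBap1 livers (11002). With no filter 7 were called for CCl4 in sgBap1 livers (9206 of all genes). Leaving out livers gave 0 to 1 for the genotype with vehicle. The replicate block (a paired fit on a number the livers only share, with correlations of -0.149 to 0.0210 between same-numbered CCl4 livers) called 0, 0, 3, 5 and 0, as without it.

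Over all genes, the genotype with vehicle gave 32 with library size alone, 1 with the replicate block, 548 with DESeq2, 27 with only the 2 groups and 0 to 150 without single livers. The genotype with CCl4 gave 94 with no filter, 24 with the replicate block, 480 with DESeq2, 28 with only the 2 groups and 1 to 71 without single livers. The interaction gave 2 with library size alone, 34 with no filter, 406 with DESeq2 and 0 to 7 without single livers. Bap1 with vehicle lost its call with library size alone (-0.91), the replicate block (-0.91) and without single livers (-0.99 to -0.84), and with CCl4 under library size alone (-0.63), the replicate block (-0.66), only the 2 groups (-0.65) and without single livers (-0.75 to -0.57).

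Directions reversed with library size alone for Hamp (0.19), Ftl1 (0.42) and Hfe (0.045) with CCl4 in sgBap1 and Hfe (0.40) in NTC livers, where that scaling put the median of all genes at 0.50 to 0.52. With Hamp and Hamp2 summed, Hamp2 turned to -0.10 for the genotype with CCl4 and to 0.31 for CCl4 in NTC, since the sum is mostly Hamp. Without single livers, uncalled values crossed 0: for the genotype with vehicle Fth1 (-0.050 to 0.16), Slc40a1 (-0.067 to 0.21) and Bmp6 (-0.11 to 0.62), for the genotype with CCl4 Hamp (-0.24 to 0.0070), Hamp2 (-0.11 to 0.30) and Trf (-0.16 to 0.0038), for CCl4 in NTC Fth1 (-0.048 to 0.22), Slc40a1 (-0.036 to 0.24) and Hfe (-0.16 to 0.016), and in the interaction Tfr2 (-0.040 to 0.19) and Bmp6 (-0.12 to 0.61). Of all 650 results for Bap1 and the named genes under the settings, those above included, 613 kept direction and side, 9 lost and 22 gained a call and 6 reversed, and of 800 without single livers 763 kept both, 15 lost and 5 gained a call and 17 reversed. Not counted there are genes given in a second genotype: calls were lost by Iscu in NTC and Nfs1 in sgBap1 livers with library size alone, by Cp in sgBap1 livers with the replicate block, only the 2 groups and without single livers and by Steap4 there without single livers, and gained by Il6ra in sgBap1 and Alad in NTC livers without single livers. Il6ra crossed 0 there (-0.57 to 0.10), and both reversed with library size alone (0.21 and 0.15). The quasi-likelihood of edgeR 3 was added after seeing the data. The cause was not tested.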
